A study of Homo sapiens with 5 samples.

Results

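Loss of B3GALT5 was examined in human embryonic stem cells kept in basal medium, gene by gene. The B3GALT5-KO basal library came from H9 cells, an established embryonic stem cell line, with the genotype B3GALT5-/-, and the WT basal library from wild-type H9 cells. Both were grown in basal medium and are labelled primed, the pluripotent state that resembles the epiblast after implantation. Genes with 1 TPM or more in either library were compared, which kept 14162 of the 26506 genes in the table (53.4%). TPM is transcript abundance corrected for transcript length and brought to 1 common total per library. The 12344 genes left out included 7025 listed at 0 in both libraries. The 183 genes whose higher value lay between 1 and 1.1 TPM, just inside that limit, had a median log2 ratio of 0, and the 166 between 0.9 and 1 TPM, just outside it, one of -0.06.

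The series holds 3 further libraries from H9 cells, which serve below as side values. These are B3GALT5-KO cells in 2iLAF medium (labelled naive), WT cells in 2iLAF (labelled primed-naive) and WT cells in 5iLAF (labelled naive), media that convert primed cells towards the earlier, naive state. Each group is 1 library, so no difference below has a test, an error or a replicate check, and the labels do not say whether the knockout cells were 1 clone or several. Any difference between the basal libraries may therefore belong to genotype, clone, culture or library, which cannot be told apart. Depth is unknown, since the table gives no counts.

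B3GALT5 is a beta-1,3-galactosyltransferase of the Golgi. It adds galactose to the globo-series glycosphingolipid Gb4 and so makes SSEA-3, the precursor of SSEA-4, surface glycolipids by which primed human embryonic stem cells are recognised. Naive cells carry less of them, and glycosphingolipids lie in membrane domains in which receptors and adhesion proteins also lie.

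Ratios are given as log2((TPM + 1)/(TPM + 1)) of B3GALT5-KO basal over WT basal, so that ratios of rare transcripts come out smaller than they are. A gene is called when its log2 ratio is 1 or more in size, in either direction, a 2-fold difference on that scale. By this rule 111 genes were higher in B3GALT5-KO basal (0.784% of those compared) and 166 were lower (1.17%). The remaining genes lay close together. The median log2 ratio was -0.07, the middle 50% ran from -0.25 to 0.11, and 12533 genes (88.5%) lay within 0.5 of zero. Calls were commonest among rare transcripts, taking 12.3% of the 332 genes with a mean under 1 TPM. Each of these 332 passed the filter through 1 library alone, so the filter itself selected for a difference. The share was 3.8% of the 3075 genes with a mean of 1 to 5 TPM. It was 0.651% of the 4762 genes with a mean of 20 to 100 TPM. At 10 TPM or more in either library, 54 genes were higher and 50 lower of 9060. The scatter plot of both basal libraries shows metallothioneins and globins among the genes farthest from the diagonal, beside single genes such as NLRP2.

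**Figure D1:**
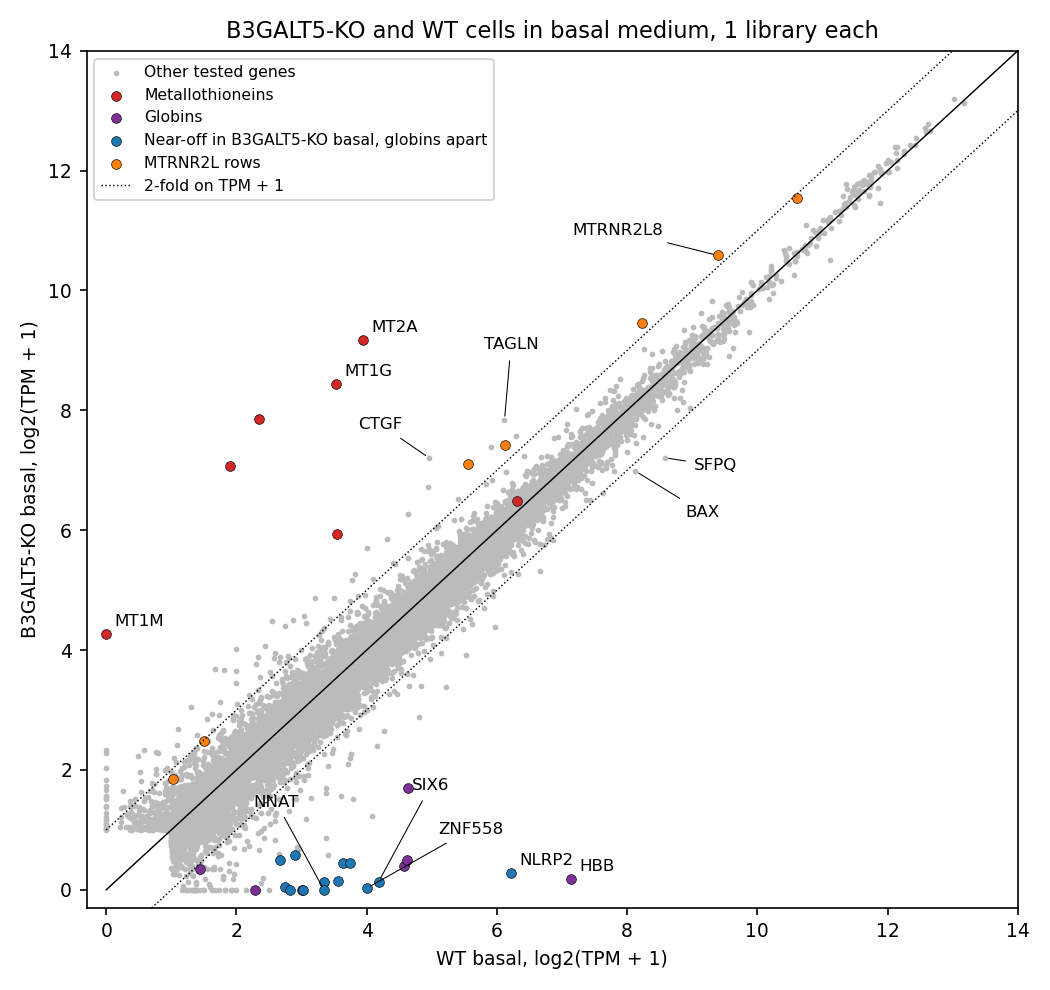
B3GALT5-KO basal (vertical axis) against WT basal (horizontal axis), both as log2(TPM + 1), for 14162 genes; each point is 1 gene and dotted lines mark a 2-fold difference. Metallothioneins lie far above the diagonal, HBB and NLRP2 far below it, and MTRNR2L rows just above the upper dotted line or near it.

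Transcript of the targeted gene was present in both libraries. B3GALT5 stood at 5.98 TPM in B3GALT5-KO basal and 9.31 TPM in WT basal (log2 ratio -0.56). Which part of the gene was edited is not given in the sources used here, so the knockout cannot be checked from this level. Among the 7 globo-series enzymes, B3GALNT1, which makes Gb4, was the 1 member called, at 2.19 TPM in B3GALT5-KO basal and 6.89 TPM in WT basal. Its level in B3GALT5-KO 2iLAF was 8.28 TPM, above both basal libraries. The call is lost at a pseudocount of 5, where the log2 ratio is -0.73. Among the 16 tested members of the beta-1,3-galactosyltransferase family it was again the 1 gene called.

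Markers of pluripotent cells were present at similar levels in both libraries. None of the 18 core pluripotency genes was called in either direction, with a list median of -0.13. NANOG, a transcription factor of the pluripotent state, stood at 154 TPM in B3GALT5-KO basal and 171 TPM in WT basal. L1TD1, which binds RNA in embryonic stem cells, came nearest to a call, at 262 TPM in B3GALT5-KO basal and 499 TPM in WT basal (log2 ratio -0.93). DNMT3B, the de novo DNA methyltransferase abundant in primed cells, was among the 10 largest losses in TPM, at 479 TPM in B3GALT5-KO basal and 754 TPM in WT basal. Of the 18 primed markers, STC1 was called higher and HMX2 lower. Of the 20 naive markers 8 reached 1 TPM, none was called, and they summed to 23.9 TPM in B3GALT5-KO basal against 19.6 TPM in WT basal.

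Metallothioneins, small cysteine-rich proteins that bind zinc, copper and cadmium, held the 6 highest log2 ratios among genes reaching 10 TPM. Of the 11 listed members 7 were compared, 6 were called higher and none lower, and the list summed to 1451 TPM in B3GALT5-KO basal against 120.6 TPM in WT basal. MT1X supplied most of the WT sum and barely differed, at 88.7 TPM in B3GALT5-KO basal and 78.2 TPM in WT basal. The 6 called members were each below 15 TPM in WT basal. MT2A stood at 574 TPM in B3GALT5-KO basal and 14.4 TPM in WT basal (log2 ratio 5.22). MT1E stood at 229.8 TPM in B3GALT5-KO basal and 4.09 TPM in WT basal (log2 ratio 5.50). MT1M stood at 18.2 TPM in B3GALT5-KO basal and was listed at 0 in WT basal. WT basal was the lowest of the 5 libraries for each of these. MT1E, for example, stood at 377 TPM in B3GALT5-KO 2iLAF, 74.5 TPM in WT 2iLAF and 407 TPM in WT 5iLAF. These genes are near-identical copies, so single members are less certain than their sum. Along chromosome 16, MT1E, MT1M, MT1JP, MT1F, MT1G and MT1H followed each other among the compared genes and were all called higher, the longest such run of the 12 found genome-wide.

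Metallothionein genes are induced by zinc through the transcription factor MTF1, which binds short metal response elements. The 250 bases before the start of 3 members are shown because these genes differed together (MT2A, MT1H) or scarcely (MT1X). They are RefSeq promoters of build GRCh38.p14, all on the + strand, at chr16:56608334-56608583 for MT2A, chr16:56669564-56669813 for MT1H and chr16:56682220-56682469 for MT1X. Capitals mark the letters TGCACNC or TGCGCNC on either strand, where overlapping matches run together.
MT2A: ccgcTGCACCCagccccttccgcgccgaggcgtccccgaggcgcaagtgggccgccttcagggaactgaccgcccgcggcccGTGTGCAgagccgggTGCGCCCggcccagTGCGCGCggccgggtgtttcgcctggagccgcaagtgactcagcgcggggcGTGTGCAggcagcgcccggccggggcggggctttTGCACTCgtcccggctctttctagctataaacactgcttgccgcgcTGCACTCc
MT1H: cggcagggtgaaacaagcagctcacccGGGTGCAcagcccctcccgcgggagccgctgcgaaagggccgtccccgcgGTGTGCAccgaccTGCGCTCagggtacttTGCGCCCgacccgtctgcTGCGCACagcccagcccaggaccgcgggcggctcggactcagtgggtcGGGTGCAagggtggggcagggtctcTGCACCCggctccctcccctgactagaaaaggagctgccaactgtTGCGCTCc
MT1X: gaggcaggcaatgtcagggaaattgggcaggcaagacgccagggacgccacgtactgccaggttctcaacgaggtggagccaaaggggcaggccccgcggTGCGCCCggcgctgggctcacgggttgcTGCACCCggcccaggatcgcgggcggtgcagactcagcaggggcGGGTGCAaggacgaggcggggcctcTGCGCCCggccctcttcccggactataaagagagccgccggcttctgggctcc
In these stretches the letters occur 7 times before MT2A, 8 times before MT1H and 4 times before MT1X. In the 300-base windows of the table, which run 50 bases past the start, 5 of the 11 metallothioneins were found and each held 3 or more matches, against 2.3% of all 35116 promoters. MT1B and MT4, listed at 0 in both basal libraries, held 3 matches each. A match describes the sequence and does not show that a factor binds it.

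Lists of metal transport genes, NRF2 targets and glucocorticoid targets gave no call. Over all compared genes 0.784% were called higher and 1.17% lower, so lists of this size can lack calls without differing from the rest. None of 24 zinc and copper transport genes was called, with a median of -0.05 that is 0.00 after median-ratio scaling. MTF1 stood at 4.36 TPM in B3GALT5-KO basal and 4.36 TPM in WT basal. SLC30A1, the zinc exporter that MTF1 induces, stood at 10.3 TPM in B3GALT5-KO basal and 14.01 TPM in WT basal. SLC39A8, with the highest ratio of the transport list (0.72), stood at 24.9 TPM in B3GALT5-KO basal and 14.7 TPM in WT basal. None of 20 NRF2 targets was called. HMOX1, heme oxygenase, stood at 29.0 TPM in B3GALT5-KO basal against 49.3 TPM in WT basal. None of 9 glucocorticoid targets was called, with FKBP5 at 48.8 TPM in both libraries.

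Some targets of YAP and some cytoskeletal genes were also higher, although most members of both lists were not called. YAP is a transcriptional coactivator that responds to cell shape, tension and density. Of 18 YAP targets 4 were called higher and none lower, 14 had positive ratios, and the list summed to 460.1 TPM in B3GALT5-KO basal against 210.2 TPM in WT basal. The list median was 0.35, against -0.07 over all compared genes, of which 0.784% were called higher and 39.8% had positive ratios. After median-ratio scaling 15 of the 18 were positive, against 49.5% of all compared genes. CTGF, a secreted matricellular protein, stood at 147 TPM in B3GALT5-KO basal and 30.1 TPM in WT basal (log2 ratio 2.25). CYR61, its relative, stood at 104 TPM in B3GALT5-KO basal and 29.9 TPM in WT basal (log2 ratio 1.77). AMOTL2, which holds YAP in the cytoplasm, and AJUBA, a LIM protein of the same pathway, were the other called members. AMOTL2 stood at 37.4 TPM in B3GALT5-KO basal and 13.1 TPM in WT basal. AJUBA stood at 29.0 TPM in B3GALT5-KO basal and 13.6 TPM in WT basal. ANKRD1, another classic target, was under 1 TPM in both basal libraries.

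Of 22 genes of the actin cytoskeleton and its regulator SRF, 3 were called higher and 20 had positive ratios, but the median was 0.16. Among all compared genes 0.784% were called higher and 39.8% had positive ratios. After median-ratio scaling 21 of the 22 were positive, against 49.5% of all compared genes. The called members encode muscle-type actins and an actin-binding protein. TAGLN, transgelin, stood at 227 TPM in B3GALT5-KO basal and 68.4 TPM in WT basal (log2 ratio 1.72). ACTA1, skeletal actin, stood at 21.3 TPM in B3GALT5-KO basal and 4.87 TPM in WT basal (log2 ratio 1.92). ACTG2, enteric smooth muscle actin, stood at 7.33 TPM in B3GALT5-KO basal and 1.46 TPM in WT basal. ACTA2, smooth muscle actin, was at 0.20 TPM in B3GALT5-KO basal and 0.81 TPM in WT basal, so muscle-type actins were not all higher. The abundant members differed less. VCL, vinculin, stood at 318 TPM in B3GALT5-KO basal and 222 TPM in WT basal, and ACTB at 5990.3 TPM in B3GALT5-KO basal and 5547 TPM in WT basal. Fibroblast and feeder cell markers summed to 98.3 TPM in B3GALT5-KO basal against 75.7 TPM in WT basal. Of 11 listed 5 were compared, all 5 had positive ratios and none was called, with DCN and FAP at 0 in both libraries. Under either scaling, and at a pseudocount of 0.1, 1 of the 5 is called higher. The part of such cells in these values was not tested.

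Further genes with high ratios belong to no single pathway. CYP26A1, which degrades retinoic acid, stood at 11.9 TPM in B3GALT5-KO basal and 2.20 TPM in WT basal (log2 ratio 2.01). It was the 1 called gene of 12 in retinoic acid metabolism and response. CRABP1, a cytoplasmic retinoic acid binding protein, stood at 523 TPM in B3GALT5-KO basal and 305 TPM in WT basal. OTX1 and SOX3, transcription factors of anterior neural tissue, were both called higher. OTX1 stood at 11.8 TPM in B3GALT5-KO basal against 2.51 TPM in WT basal, and SOX3 at 28.4 TPM in B3GALT5-KO basal against 10.3 TPM in WT basal. In the same neuroectoderm list of 7 compared genes, SIX6 and POU3F1 were called lower, so the list had no common direction. POU3F1 loses its call under either scaling, at -0.96, with FPKM and at a pseudocount of 5. ANXA3, a calcium-dependent phospholipid-binding protein, stood at 51.4 TPM in B3GALT5-KO basal and 15.1 TPM in WT basal. GADD45B, a stress-inducible growth arrest gene, stood at 21.8 TPM in B3GALT5-KO basal and 6.33 TPM in WT basal. BST2, the interferon-inducible restriction factor tetherin, stood at 166 TPM in B3GALT5-KO basal and 59.1 TPM in WT basal. It was the 1 called higher of 20 antigen presentation and interferon genes, in which HLA-B was called lower at 21.8 TPM in B3GALT5-KO basal against 47.2 TPM in WT basal.

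VLDLR, a lipoprotein and reelin receptor, was named after its values were seen, because its antisense row moved with it. VLDLR stood at 57.1 TPM in B3GALT5-KO basal and 18.8 TPM in WT basal. VLDLR-AS1 stood at 3.91 TPM in B3GALT5-KO basal and 0.70 TPM in WT basal. The library kit keeps strand, but whether the quantification used it is not given in the sources used here, so reads of the pair may not be separated. ZNF667 and ZNF667-AS1 were likewise both called higher.

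MTRNR2L rows, nuclear copies that resemble the mitochondrial ribosomal RNA gene MT-RNR2, included the gene with the largest gain in TPM, MTRNR2L2. Of 10 rows 7 were compared and 4 were called higher. MTRNR2L8 stood at 1534 TPM in B3GALT5-KO basal and 671 TPM in WT basal. MTRNR2L2 stood at 2993 TPM in B3GALT5-KO basal and 1565 TPM in WT basal (log2 ratio 0.93), and is called after scaling, at 1.01. All rows together took 0.554% of TPM in B3GALT5-KO basal and 0.265% in WT basal. The rows are near-identical to each other and to the mitochondrial gene, so these values are uncertain as levels of single genes. Ribosomal protein genes had slightly positive ratios as a group, with 65 of 78 positive and a median of 0.10. Of all compared genes 39.8% were positive. None of the 78 was called, and their share of TPM was 23.1% in B3GALT5-KO basal and 21.6% in WT basal. RPS4X, which is on chromosome X, was at 2823 TPM in B3GALT5-KO basal and 3761 TPM in WT basal, the largest loss in TPM of any gene.

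**Figure D2:**
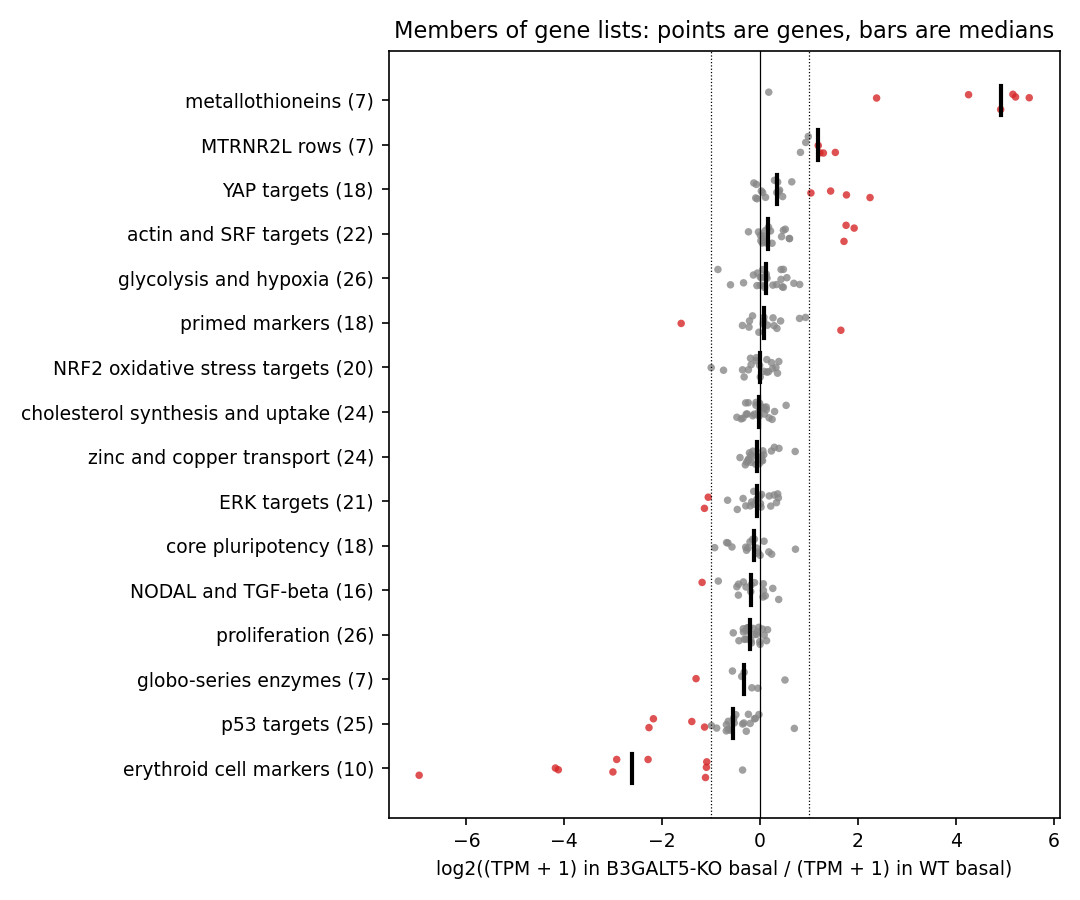
Log2 ratios (horizontal axis) of the compared members of 16 gene lists, ordered by median; each point is a gene, red where its ratio is 1 or more in size, and the black bar is the list median. Metallothioneins (median 4.92) and erythroid markers (median -2.61) lie apart, and 24 of 25 p53 targets lie left of zero. Only 2 of the 10 erythroid markers reached 1 TPM in both libraries.

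A set of genes was nearly absent from the B3GALT5-KO basal library. Under 0.5 TPM in B3GALT5-KO basal and at 5 TPM or more in WT basal were 17 genes, while the reverse held for MT1M alone. Globins made up 4 of the 17. NLRP2, a cytoplasmic protein that the early embryo needs from the oocyte in mouse, stood at 0.21 TPM in B3GALT5-KO basal and 73.1 TPM in WT basal (log2 ratio -5.94). ZNF558, a zinc finger gene, stood at 0.02 TPM in B3GALT5-KO basal and 15.1 TPM in WT basal (log2 ratio -3.98). DNAJC15, a J-domain protein of mitochondria, stood at 0.11 TPM in B3GALT5-KO basal and 10.7 TPM in WT basal (log2 ratio -3.40). These genes were present in the other knockout library. In B3GALT5-KO 2iLAF, NLRP2 stood at 84.0 TPM, ZNF558 at 9.85 TPM and DNAJC15 at 93.6 TPM. Of the 17 genes 14 were at 1 TPM or more in B3GALT5-KO 2iLAF, 11 in WT 2iLAF and 10 in WT 5iLAF. The 17 were chosen partly for their level in WT basal. The same shares over all genes at that level are not given here, so these counts describe the 17 only.

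Several of the same genes have known roles in growth, differentiation or imprinting. CDKN1A, the p21 inhibitor of cyclin-dependent kinases, stood at 0.41 TPM in B3GALT5-KO basal and 5.38 TPM in WT basal. NNAT, an imprinted gene of neural tissue, was listed at 0 in B3GALT5-KO basal and stood at 9.16 TPM in WT basal. BLCAP, in whose intron NNAT lies, stood at 70.7 TPM in B3GALT5-KO basal and 61.1 TPM in WT basal, and NNAT was the 1 called gene of 20 imprinted genes compared. SIX6, a homeobox factor of the eye and hypothalamus, stood at 0.10 TPM in B3GALT5-KO basal and 17.2 TPM in WT basal, and was at 0.13 TPM or less in the 2iLAF and 5iLAF libraries. Its neighbour C14orf39 was also called lower. ERVMER34-1, an envelope gene of an endogenous retrovirus, stood at 0.36 TPM in B3GALT5-KO basal and 11.5 TPM in WT basal. PSMD5, a chaperone of proteasome assembly, stood at 0.49 TPM in B3GALT5-KO basal and 6.44 TPM in WT basal. Both MAGEH1 and BEX5 lie on chromosome X. MAGEH1 stood at 0.36 TPM in B3GALT5-KO basal and 12.4 TPM in WT basal. BEX5 stood at 0.10 TPM in B3GALT5-KO basal and 9.17 TPM in WT basal. DNAJA4, a J-domain chaperone, stood at 0.03 TPM in B3GALT5-KO basal and 5.69 TPM in WT basal. The row EEF1E1-BLOC1S5, which names a read-through transcript, and MIR663A, a microRNA row, were listed at 0 in B3GALT5-KO basal and are uncertain as single values.

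The 250 bases before 3 of these genes are shown to give the sequence around the start of genes that were present in 4 libraries and nearly absent in 1. They are RefSeq promoters of GRCh38.p14 at chr19:54966124-54966373 for NLRP2 (+ strand), chr19:8832305-8832554 for ZNF558 (- strand) and chr13:43023336-43023585 for DNAJC15 (+ strand), each printed along its own strand. Capitals mark CG dinucleotides, the sites of DNA methylation, which was not measured here.
NLRP2: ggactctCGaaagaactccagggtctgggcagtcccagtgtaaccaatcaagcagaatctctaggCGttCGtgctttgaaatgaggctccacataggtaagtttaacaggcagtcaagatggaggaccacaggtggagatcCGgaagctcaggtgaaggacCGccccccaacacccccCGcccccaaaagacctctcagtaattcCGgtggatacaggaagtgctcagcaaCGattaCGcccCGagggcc
ZNF558: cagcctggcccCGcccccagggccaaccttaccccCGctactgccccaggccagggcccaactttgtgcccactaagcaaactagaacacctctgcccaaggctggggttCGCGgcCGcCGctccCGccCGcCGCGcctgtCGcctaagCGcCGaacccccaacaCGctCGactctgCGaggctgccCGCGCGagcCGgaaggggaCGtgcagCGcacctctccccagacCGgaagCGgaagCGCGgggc
DNAJC15: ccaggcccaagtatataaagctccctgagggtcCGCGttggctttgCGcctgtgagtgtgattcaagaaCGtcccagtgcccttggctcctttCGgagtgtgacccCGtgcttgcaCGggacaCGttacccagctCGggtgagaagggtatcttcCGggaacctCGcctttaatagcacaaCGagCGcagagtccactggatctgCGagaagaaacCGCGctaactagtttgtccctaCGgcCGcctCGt
CG occurs 10 times before NLRP2, 26 times before ZNF558 and 19 times before DNAJC15. In windows of 300 bases, the 10 of 17 genes with a RefSeq entry held 12 to 34 CG with a median of 21, near the median of 26 over 11078 compared genes with an entry. The metallothionein letters occurred in 2 of these 10, against 29.6% of all promoters.

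**Figure D3:**
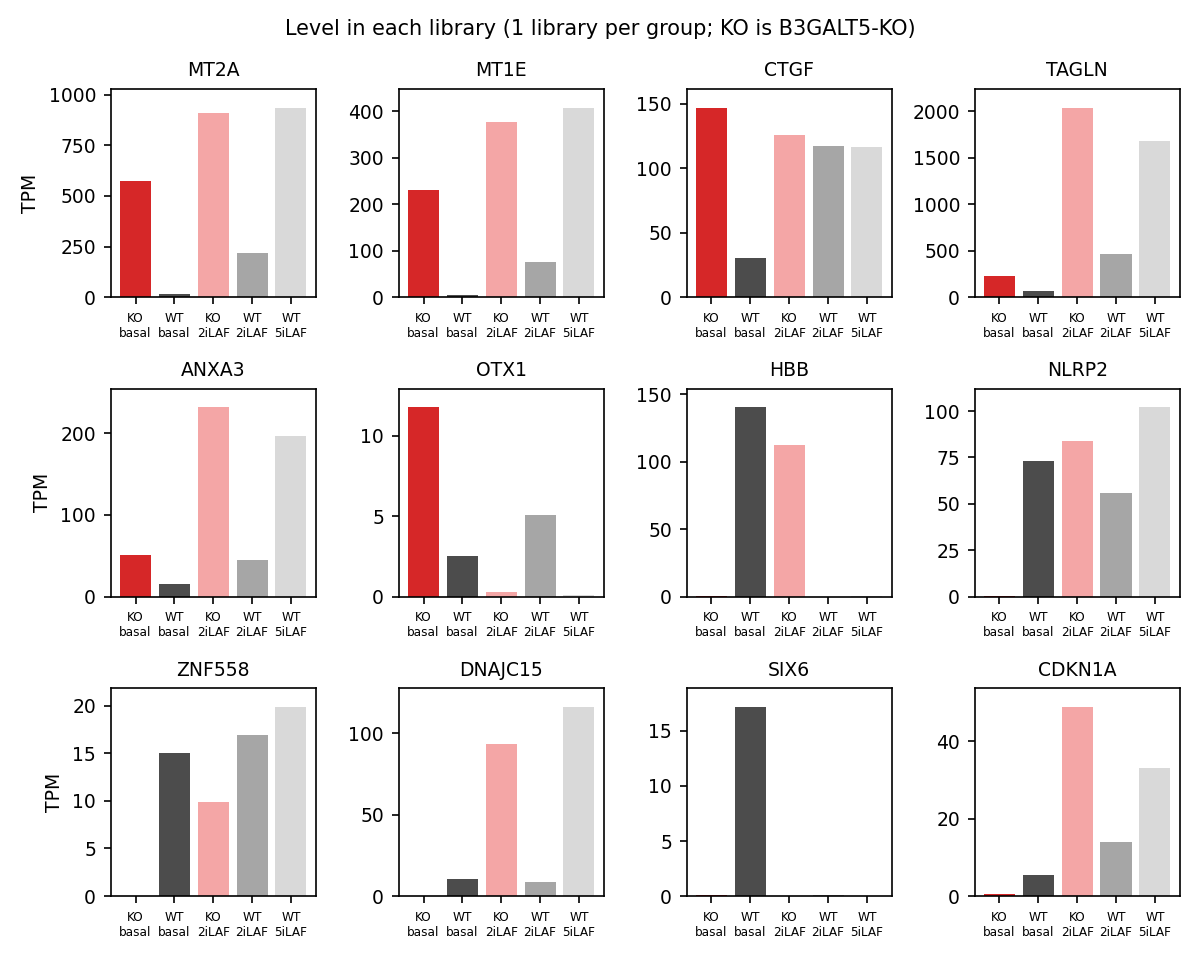
TPM of 12 named genes in each of the 5 libraries, 1 bar per library, each panel with its own vertical axis from 0. MT2A and MT1E are lowest in WT basal, whereas NLRP2, ZNF558 and DNAJC15 have bars in every library but B3GALT5-KO basal.

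Globin transcripts separated the basal libraries more than any other erythroid genes. HBB, adult beta-globin, stood at 0.13 TPM in B3GALT5-KO basal and 140.2 TPM in WT basal (log2 ratio -6.97), the lowest ratio of all. The 6 adult and fetal globin genes summed to 3.12 TPM in B3GALT5-KO basal and 222 TPM in WT basal. They summed to 220.6 TPM in B3GALT5-KO 2iLAF, 0.17 TPM in WT 2iLAF and 12.1 TPM in WT 5iLAF, so the sum did not follow genotype. Of 19 erythroid cell markers 10 were compared and 9 were called lower, or 5 at a pseudocount of 5 and 6 with FPKM. Only 2 reached 1 TPM in both libraries, and 1 of these was called lower. The other compared markers passed the filter through WT basal alone, which fixed the direction of their ratios. The 13 that are not adult or fetal globins summed to 8.43 TPM in B3GALT5-KO basal and 17.0 TPM in WT basal. Most of that sum was AHSP, the alpha-globin chaperone, at 7.31 TPM in B3GALT5-KO basal and 9.63 TPM in WT basal. Without it the other 12 summed to 1.12 TPM in B3GALT5-KO basal and 7.34 TPM in WT basal. ALAS2, the erythroid enzyme that starts heme synthesis, stood at 0.18 TPM in B3GALT5-KO basal and 1.52 TPM in WT basal. SLC4A1, the anion exchanger of red cells, stood at 0.10 TPM in B3GALT5-KO basal and 1.38 TPM in WT basal. HBM, another gene of the alpha-globin cluster, was listed at 0 in both. KLF1, the erythroid transcription factor, was at 0.56 TPM in B3GALT5-KO basal and 0.58 TPM in WT basal. In bulk RNA, fewer cells of a type and less RNA per cell cannot be told apart. Whether RNA of other cells contributed was not tested. Granulocyte markers summed to 13.4 TPM in B3GALT5-KO basal and 19.5 TPM in WT basal, with S100A8 and S100A9 at 0 in both. Without MMP9, a secreted protease, they summed to 5.04 TPM in B3GALT5-KO basal and 3.29 TPM in WT basal.

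Targets of p53, the transcription factor that induces arrest and apoptosis genes after DNA damage, had lower values in B3GALT5-KO basal. Of 25 compared members 4 were called lower and none higher, 24 had negative ratios, and the median was -0.54 against -0.07 over all compared genes. Of all compared genes 1.17% were called lower and 60% had negative ratios. With 1 TPM required in both libraries 2 of 22 targets were called lower, and at a pseudocount of 5 it was 2 of 25. After median-ratio scaling 23 were negative and the median was -0.49, while 50.5% of all compared genes were negative. PHLDA3, an inhibitor of AKT signalling, stood at 1.86 TPM in B3GALT5-KO basal and 12.8 TPM in WT basal (log2 ratio -2.27). BAX, which permeabilises mitochondria in apoptosis, stood at 126 TPM in B3GALT5-KO basal and 278 TPM in WT basal (log2 ratio -1.13). EDA2R, a TNF receptor family member on chromosome X, stood at 0.98 TPM in B3GALT5-KO basal and 4.2 TPM in WT basal. CDKN1A, given above, was the fourth. Uncalled members had smaller differences. RPS27L stood at 53.9 TPM in B3GALT5-KO basal and 100.4 TPM in WT basal. MDM2, the ubiquitin ligase that limits p53, stood at 8.40 TPM in B3GALT5-KO basal and 10.8 TPM in WT basal. CCNG1, at the highest TPM of the list with BAX, stood at 266 TPM in B3GALT5-KO basal and 270.2 TPM in WT basal. RRM2B, a ribonucleotide reductase subunit, ran the other way at 43.3 TPM in B3GALT5-KO basal and 26.2 TPM in WT basal.

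**Figure D4:**
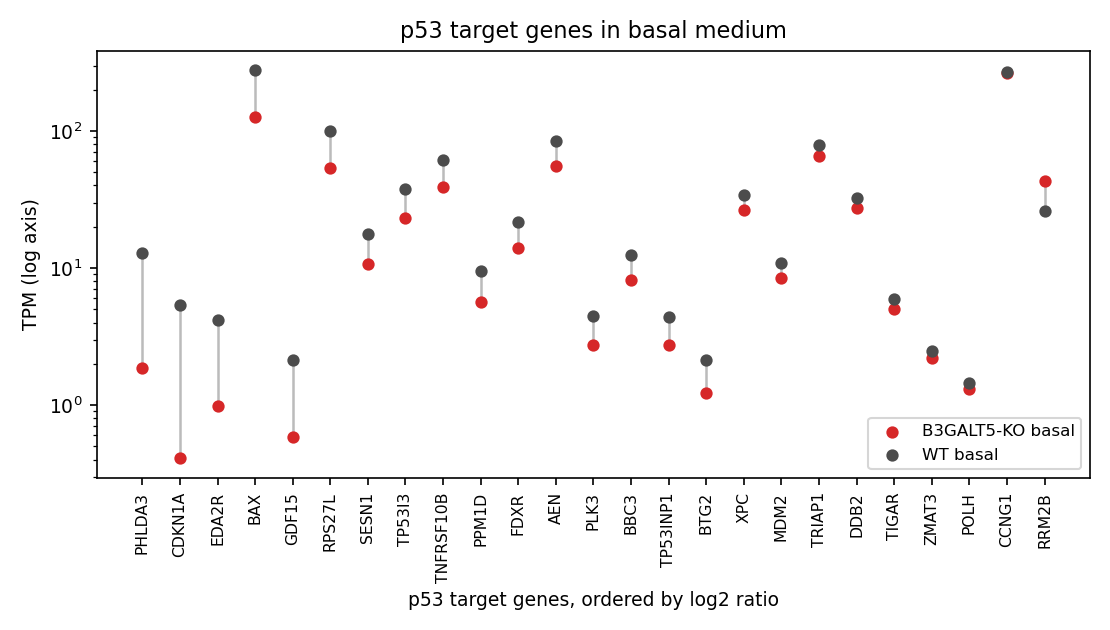
TPM (log axis) of the 25 compared p53 targets in B3GALT5-KO basal (red) and WT basal (grey), 1 library each, ordered by log2 ratio from PHLDA3 at the left to RRM2B at the right. The red point lies below the grey one in 24 of 25 genes, with BAX at 126 and 278 TPM.

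Proliferation genes gave no call among 26, with 21 negative ratios and a median of -0.21, while 60% of all compared genes were negative. After median-ratio scaling 17 were negative, against 50.5% of all compared genes, and the median was -0.14. MKI67, the Ki-67 antigen, stood at 37.3 TPM in B3GALT5-KO basal and 54.9 TPM in WT basal, and CDK1 at 218 TPM in B3GALT5-KO basal and 195.6 TPM in WT basal, so members differed in sign. Replication-dependent histones, poorly captured in poly(A) libraries and near-identical to each other, had a median of -0.51 with 2 of 37 higher and 1 lower. Immediate-early genes FOS and EGR1 were called lower, 2 of 11 compared, with FOS at 3.18 TPM in B3GALT5-KO basal and 9.64 TPM in WT basal. EGR1, also an ERK target, stood at 1.86 TPM in B3GALT5-KO basal and 5.28 TPM in WT basal, whereas DUSP6, a phosphatase induced by ERK, stood at 370 TPM in B3GALT5-KO basal and 303 TPM in WT basal. Of 16 NODAL and TGF-beta pathway genes SMAD7, an inhibitory SMAD, was the 1 called, at 14.5 TPM in B3GALT5-KO basal and 34.1 TPM in WT basal.

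Few abundant transcripts were called, in a group set after the data had been seen. At 100 TPM or more in either library, 6 genes were lower and 13 higher of 1708. SFPQ, a splicing and paraspeckle protein, stood at 147 TPM in B3GALT5-KO basal and 380.5 TPM in WT basal (log2 ratio -1.37). SNRNP25, a protein of the minor spliceosome, stood at 38.8 TPM in B3GALT5-KO basal and 100.3 TPM in WT basal. SRSF6, an SR splicing factor, stood at 56.5 TPM in B3GALT5-KO basal and 116 TPM in WT basal (log2 ratio -1.02). KAT7, a histone acetyltransferase, stood at 97.8 TPM in B3GALT5-KO basal and 198 TPM in WT basal (log2 ratio -1.01). SRSF6 and KAT7 lose their calls under either scaling, at -0.95 and -0.94. BAX and HBB were the other 2 of the 6. Further genes among the 20 lowest ratios had varied roles. CSRP1, a LIM-domain protein of the cytoskeleton, stood at 1.34 TPM in B3GALT5-KO basal and 15.99 TPM in WT basal, and is the neighbour of PHLDA3 on chromosome 1. METTL7A, a methyltransferase-like protein, stood at 9.44 TPM in B3GALT5-KO basal and 36.3 TPM in WT basal. AMT, an enzyme of glycine cleavage, stood at 19.96 TPM in B3GALT5-KO basal and 61.8 TPM in WT basal. MX2, an interferon-induced GTPase, stood at 5.29 TPM in B3GALT5-KO basal and 18.3 TPM in WT basal.

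Lists of basic metabolism and of the unfolded protein response gave no call, with members on both sides of zero. Of 26 glycolysis and hypoxia genes 20 had positive ratios, against 39.8% of all compared genes, and the median was 0.12, with SLC2A1, a glucose transporter, at 218 TPM in B3GALT5-KO basal and 135 TPM in WT basal. AK4, a mitochondrial adenylate kinase, ran the other way at 60.6 TPM in B3GALT5-KO basal and 111 TPM in WT basal. Cholesterol synthesis and uptake genes (24 compared), respiratory chain subunits (75) and ATF4 and unfolded protein response genes (21) had no call and medians of -0.02, 0.00 and -0.01. HSPA5, the main chaperone of the endoplasmic reticulum and an unfolded protein response gene, stood at 282 TPM in B3GALT5-KO basal and 464 TPM in WT basal. ASNS, asparagine synthetase and an ATF4 target, had a log2 ratio of 0.63. Of 15 heat shock chaperones compared, 6 had positive and 9 negative ratios, and 1 was called lower. This was HSPA1A, at 37.8 TPM in B3GALT5-KO basal and 79.5 TPM in WT basal. HSPA1A loses its call under median-ratio scaling, at -0.99, with FPKM and at a pseudocount of 5. HSPA8, among the 10 largest losses in TPM, stood at 1461 TPM in B3GALT5-KO basal and 2226 TPM in WT basal. Among DNA methylation and imprint control genes none of 10 was called, with UHRF1, which recruits DNMT1, at 27.7 TPM in B3GALT5-KO basal and 51.8 TPM in WT basal.

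Genes on chromosome X had lower ratios than autosomal genes as a group. Of 528 compared genes 13 were called lower and 2 higher, 70.3% had negative ratios and the median was -0.17. On the autosomes the median was -0.07 over 13405 genes, 59.8% were negative, and single autosomes had medians between -0.11 and -0.02. The share called lower was 2.46% on chromosome X and 1.1% on the autosomes. At 10 TPM or more the medians were -0.18 over 311 X genes and -0.06 over 8693 autosomal genes. Low ratios were not spread evenly along the chromosome. Over windows of 25 neighbouring genes at 5 TPM or more, the lowest median was -0.49, in the window from TCEAL8 to AMMECR1, and the highest was 0.03. Windows at -0.3 or less made up 16.1% of 366 on chromosome X and 0.140% of 10024 on the autosomes. On chromosome X they included a separate stretch, centred on genes from SLC25A14 to SMIM10L2B, where the median reached -0.37. Neighbouring windows share most of their genes, so they are not separate observations. UTP14A, a ribosome assembly factor on chromosome X, stood at 9.60 TPM in B3GALT5-KO basal and 27.5 TPM in WT basal. The same 311 X genes had a median of 0.24 in B3GALT5-KO 2iLAF, -0.17 in WT 2iLAF and 0.06 in WT 5iLAF, each over WT basal, with autosomal medians of -0.18, -0.20 and -0.15. All of these share the WT basal library.

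**Figure D5:**
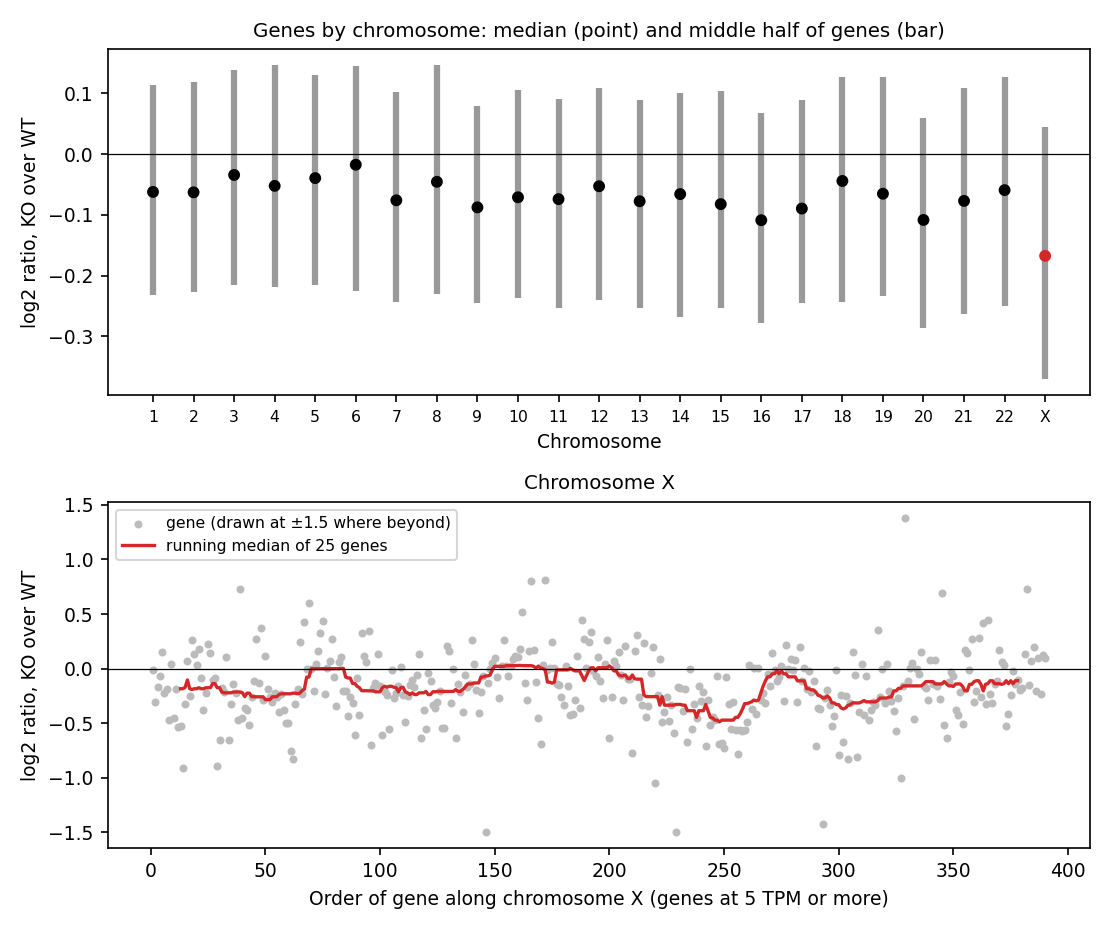
Top, median log2 ratio of B3GALT5-KO basal over WT basal by chromosome (points) with the range from the lower to the upper quartile (bars); bottom, the ratio of each chromosome X gene at 5 TPM or more in gene order, with the running median of 25 genes in red. Chromosome X has the lowest median, -0.17, and its running median reaches -0.49 at the 25 genes centred on order 248.

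The 2iLAF pair, which shares no library with the basal pair, allowed each called gene to be looked up again in the same contrast of genotypes. Labelled state also differs between the 2iLAF libraries, naive for B3GALT5-KO and primed-naive for WT, so genotype and state cannot be told apart there. In that pair 17.3% of 15142 genes were higher and 11.3% lower in B3GALT5-KO. Of the 111 genes higher in B3GALT5-KO basal 92 were compared in 2iLAF, where 41 were higher (44.6%) and 12 lower (13.04%). The 41 include the 6 metallothioneins, TAGLN, ACTG2, CYR61, ANXA3, GADD45B and VLDLR. MT2A stood at 911 TPM in B3GALT5-KO 2iLAF and 217 TPM in WT 2iLAF. The 6 metallothioneins, TAGLN, ACTG2, CYR61, ANXA3 and GADD45B were also higher in WT 5iLAF, labelled naive, than in WT 2iLAF. In WT 5iLAF, MT2A stood at 935 TPM and TAGLN at 1686 TPM. TAGLN stood at 2037 TPM in B3GALT5-KO 2iLAF and 460 TPM in WT 2iLAF. The part of genotype in these levels was not tested. CTGF stood at 126 TPM in B3GALT5-KO 2iLAF and 117 TPM in WT 2iLAF, so it did not recur. Of the 166 genes lower in B3GALT5-KO basal 140 were compared in 2iLAF, where 31 were lower (22.1%) and 42 higher (30.0%). NNAT, ERVMER34-1, HMX2, MX2 and AMT were lower in both. AMT stood at 20.5 TPM in B3GALT5-KO 2iLAF and 58.7 TPM in WT 2iLAF. The recurring genes made up 1.56% of all genes higher and 1.82% of all genes lower in 2iLAF.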

How the data were processed

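Poly(A)-selected RNA of H9 cells was sequenced after stranded TruSeq library preparation, per the labels' protocols. The submitters' processing notes name Trimmomatic 0.39, Bowtie2 2.3.4.1, RSEM 1.2.28 and build hg19; the sources used here give neither the annotation nor RSEM's strand setting. The authors deposited TPM and FPKM per gene symbol and library, per the file headers, without counts, so depth is unknown and no counting error can be given; 18 empty columns were not used. Groups came from the sample titles.

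From the deposited TPM, genes at 1 TPM or more in either basal library were compared as log2((TPM + 1)/(TPM + 1)), with a size rule of 1 and no test, since each group is 1 library. RSEM divides reads that match several genes by an estimate, so near-identical, overlapping and read-through genes are uncertain as single values. Named are B3GALT5, the 20 highest and 20 lowest ratios among genes reaching 10 TPM, the 10 largest gains and losses in TPM, genes under 0.5 TPM in 1 basal library and at 5 TPM or more in the other, and list members that were called, at the highest levels or defining for a cell type; of these the text gives a selection. Genes picked later, by their values, are marked as such. The genes and the 42 gene lists were chosen with earlier results of these data known, so no list gives independent support. The MTRNR2L list, the group at 100 TPM or more, the chromosome X windows, and the alternatives without small RNA rows or without chromosome X genes were added after the data had been seen. Sex-linked genes that could serve to type a sample were not printed.

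Chromosomes (13934 genes placed, 228 not) and neighbours were looked up by symbol or synonym in RefSeq's GRCh38 table, and promoters from RefSeq GRCh38.p14. Of the 11 metallothioneins 5 had a promoter entry, as had 10 of the 17 nearly absent genes; the first listed start was used. Alternatives were pseudocounts of 0.1 and 5, other filters, median-ratio and trimmed-mean scaling, FPKM in place of TPM, and 1.5-fold and 4-fold size rules. Matplotlib 3.10.9, scipy 1.17.1, pandas 2.3.3 and numpy 2.4.6 ran under Python 3.11.15, and the procedure was tested on simulated data.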

Additional observations from a re-analysis of the deposited data

Results flagged for a closer look

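For 27 genes, counting all named genes and all called list members, the ratio of B3GALT5-KO over WT passed the size rule in opposite directions in basal medium and in 2iLAF. With 1 library per group these differences were not tested, and the 2iLAF libraries differ in labelled state as well as in genotype. Of these, 20 were lower in B3GALT5-KO basal but higher in B3GALT5-KO 2iLAF. Among erythroid genes the log2 ratios in 2iLAF were 6.83 for HBB, 5.42 for HBA1, 5.35 for HBA2, 4.13 for HBG2, 1.62 for HBD and 1.12 for ALAS2. CSRP1 had a ratio of 3.68 in 2iLAF, at 120.1 TPM in B3GALT5-KO 2iLAF and 8.48 TPM in WT 2iLAF. DNAJC15 had a ratio of 3.29 in 2iLAF, at 93.6 TPM in B3GALT5-KO 2iLAF and 8.67 TPM in WT 2iLAF. PSMD5 had one of 1.83, CDKN1A one of 1.74, C9orf135 one of 1.56 and METTL7A one of 1.46. The immediate-early genes FOS and EGR1 had ratios of 2.36 and 1.18, and SMAD7, the inhibitory SMAD, one of 1.39. Ratios were 2.88 for HLA-G, 2.50 for HLA-B and 1.34 for HSPA1A, each of which has near-identical relatives. The small nucleolar RNA rows SNORA5A and SNORD15B had ratios of 1.23 and 1.51.

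The other 7 were higher in B3GALT5-KO basal and lower in B3GALT5-KO 2iLAF. CYP26A1 had a ratio of -2.18 in 2iLAF, at 71.1 TPM in B3GALT5-KO 2iLAF and 325 TPM in WT 2iLAF, and OTX1 one of -2.22, at 0.30 TPM in B3GALT5-KO 2iLAF and 5.05 TPM in WT 2iLAF. BST2 had a ratio of -1.30 and ASS1 one of -1.32. The histone row HIST1H4K had one of -2.44, LINC00698 one of -2.47 and PCOLCE-AS1 one of -2.16.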

How the results depend on the processing

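Counts of called genes depended on the settings. Against 111 higher and 166 lower, a pseudocount of 0.1 gave 241 and 356, one of 5 gave 34 and 40, a filter of 5 TPM in either library 65 and 87, a filter of 1 TPM in both 68 and 74, FPKM 70 and 90, a 1.5-fold rule 434 and 721, and a 4-fold rule 12 and 32. Within a library FPKM is a fixed multiple of TPM, 0.511 in B3GALT5-KO basal and 0.497 in WT basal. The FPKM alternative therefore acts as a larger pseudocount with a small shift in scale. Both scalings gave 132 higher and 152 lower (log2 factor -0.07), and the share of calls that were higher was 46.5% against 40.1%. Leaving out small RNA rows gave 95 and 146, and leaving out chromosome X genes 109 and 153. Of 744 values of named genes under the alternatives, 706 kept their side of the size rule, 36 lost a call, 2 gained one and none changed sign after a call. A change of filter cannot alter a gene's ratio, so some of the 706 were bound to stay. These were 97 values without a filter, 90 at 5 TPM in either library and 72 at 1 TPM in both. Genes that failed a filter were not counted. Losses were most frequent at a pseudocount of 5, among them CDKN1A, EDA2R, AJUBA, ACTG2, FOS and HLA-B. The erythroid median moved to -4.33 at pseudocount 0.1 and to -1.05 at pseudocount 5, and the chromosome X median was -0.11 after scaling and 0.00 without a filter. The sign of near-zero list medians, such as zinc transport, turned with scaling. No paired analysis was possible because each group holds 1 library, and for the same reason no replicate could be left out. With depth unknown, ratios of genes at a few TPM are the least certain.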

Other observations

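Rows of microRNAs and small nucleolar RNAs, which poly(A) libraries capture poorly, were called higher in 15 and lower in 19 of 58 cases, host genes left out. That is 58.6%, against 1.72% of the other compared genes. With host genes included, 16 of 69 rows were called higher and 20 lower. Only 38 of the 69 reached 1 TPM in both libraries, and 4 of these were higher and 5 lower. Among all 13446 genes that did so 68 were higher and 74 lower. The other rows passed the filter through 1 library alone, which favours a large ratio. At a pseudocount of 5, 2 of the 69 were higher and 2 lower. Of the 30 genes listed at 0 in B3GALT5-KO basal and at 1 TPM or more in WT basal, 13 were such rows, as were 9 of the 22 listed at 0 in WT basal and at 1 TPM or more in B3GALT5-KO basal.

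Single genes of varied roles also passed the size rule and were picked for mention after their values were seen. GBX2, a homeobox factor, stood at 4.99 TPM in B3GALT5-KO basal and 11.8 TPM in WT basal. GNA14, a G protein subunit, stood at 0.83 TPM in B3GALT5-KO basal and 9.33 TPM in WT basal. TRIM22, an interferon-induced ubiquitin ligase, stood at 2.08 TPM in B3GALT5-KO basal and 9.37 TPM in WT basal. These 3 were called lower, whereas the next 3 were called higher. ASS1, an enzyme of arginine synthesis, stood at 189 TPM in B3GALT5-KO basal and 77.5 TPM in WT basal. PIM1, a serine/threonine kinase, stood at 91.4 TPM in B3GALT5-KO basal and 41.1 TPM in WT basal. NEDD9, a scaffold protein of focal adhesions, stood at 12.6 TPM in B3GALT5-KO basal and 3.95 TPM in WT basal. Clustered protocadherins gave 2 higher and none lower of 27, and none of 39 HOX genes reached 1 TPM in either basal library.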
